A study of Rattus norvegicus with 72 samples.

Results

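Medial collateral ligament cut 7 days earlier was set against the same ligament after sham surgery, in rats. The comparison took every column of the deposited intensity matrix that the labels give as day 7, which was 6 of 72 columns: 3 of severed ligament and 3 of sham-operated ligament. Severed rats were adult male Sprague-Dawley animals whose ligament was cut under isoflurane with buprenorphine as the painkiller. Sham rats of the same strain and sex had the same drugs and an operation on both knees that left the ligament uncut. Rats left unmanipulated gave 5 further columns, and severed and sham rats killed on days 10 and 14 gave 5 columns for each operation and day. Earlier days, cultured fibroblasts and reference RNA entered the normalisation, but their levels enter no difference given below. They also entered the fit, which shares the spread between columns over all groups, and so bear on every SE and p-value. Each ligament was freeze-dried and extracted whole, and its RNA was labelled with 1 of 2 dyes and read on a rat whole-genome array from Agilent, 2 samples to many arrays. The labels state that injured ligaments yielded more RNA than the rest. They speak of 5 animals for each group and time, while day 7 has 3 columns a side, and nothing says that the columns of a group came from separate animals, so that p-values measure the spread between columns.

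The medial collateral ligament runs along the inner side of the knee and consists mostly of type I collagen fibrils laid down by fibroblasts, with small proteoglycans that set fibril width. A cut ligament first fills with blood and inflammatory cells, then with a cellular scar in which fibroblasts divide and lay down new matrix, and lastly remodels over months. Matrix metalloproteinases are secreted or membrane-bound enzymes that cut collagen and other matrix proteins, and the tissue inhibitors of metalloproteinases block them.

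All values are log2 of quantile-normalised intensity, in which the floor of 50 stands at 5.64, and all differences are severed minus the group named. The columns were first compared with each other. Severed replicate 2 had a Spearman rank correlation of 0.042 to 0.123 with the other day 7 columns, while the remaining severed columns correlated at 0.837 and the sham columns among themselves at 0.541 to 0.612. The median raw intensity was 93, 13062 and 41 in severed replicates 1, 2 and 3, against 211, 216 and 263 in the sham columns. Severed replicate 2 was therefore left out of every value below unless it is named, which leaves 2 severed columns. The first lines of the array were also out of rank in the remaining columns. In the order of the array, 12 and 6 of 103 lines were out of rank in severed replicates 1 and 3, against 2, 23 and 30 in sham replicates 1, 2 and 3. Of spots brighter than 10 on the log2 scale, 61.9% in the first 30 lines differed by over 1.5 between sham replicates 3 and 2, against 1.03% in the later lines. Many genes below whose spot lies in such a line are named as such, and many of their differences are repeated with those spots missing. A gene without that mark is not thereby clear of such lines. For Mmp13, Lox, Adamts2, Postn, Kera and Podnl1 the repeat leaves sham replicate 1 alone, which shares an array with severed replicate 3. For Adamts2 it also leaves severed replicate 3 alone.

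**Figure D1:**
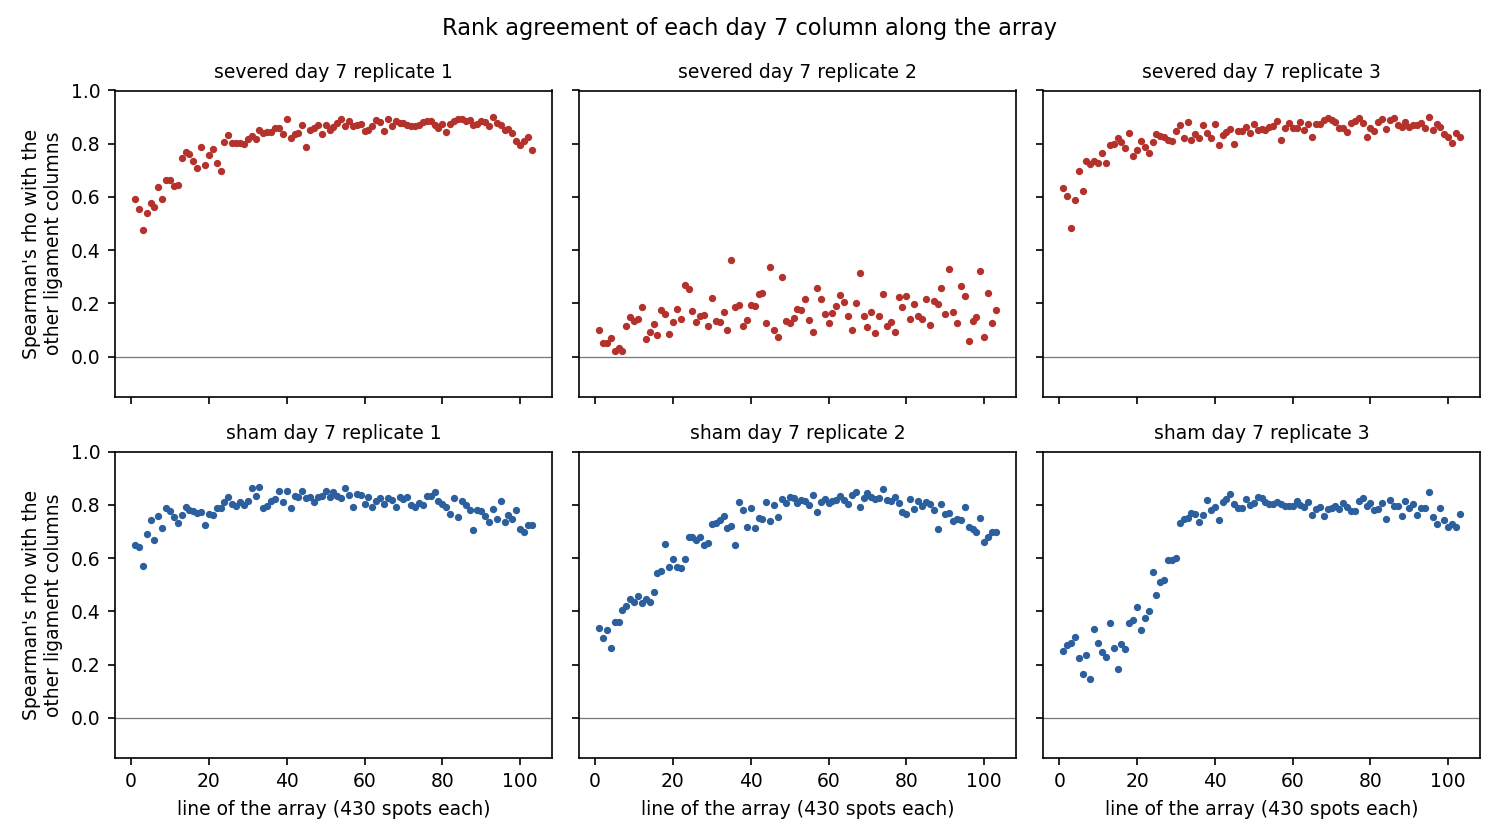
Spearman's rho of each day 7 column with the other ligament columns (y axis, no unit) in each of the 103 lines of the array (x axis, 430 spots a line), for the severed columns in the upper panels and the sham columns in the lower ones. Severed replicate 2 stays low over the whole array, and sham replicates 2 and 3 are low in their first 23 and 30 lines.

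The sham columns differed from each other by less than repeated spots did within a column, with a median SD of 0.289 against 0.441 over the brighter probes. Over the brightest probes their SD was 0.0848, against 0.22 to 1.39 in the groups of ligaments other than severed day 7. In severed day 7 it was 1.6 with severed replicate 2 kept. They were counted as 1 sample, which is assumed to vary like the samples of the other groups. All severed day 7 columns were labelled with the red dye Cy5 and all sham columns with the green dye Cy3, so dye and operation cannot be told apart within the day. Among the defining genes of ligament, Col1a1, Col3a1 and Thbs4 stood above 15 in each of the 5 columns used and Tnmd above 11, while Scx has no named probe.

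No gene passed an adjusted p of 0.05 for severed against sham ligament on day 7. With limma and Benjamini-Hochberg adjustment over 37746 genes, 0 were called, which is 0% of those tested, and 557 (1.48%) had an unadjusted p under 0.05. With severed replicate 2 and all spots kept, 0 of 37763 were called and 1043 (2.76%) had an unadjusted p under 0.05. In simulated data of the same layout, 1% of changes of 2 log2 units and 47% of changes of 4 were recovered, with 5 false calls. The genes are therefore described by their columns. A gene is said to stand apart where both severed columns lay on 1 side of all 3 sham columns and the means differed by over 1 log2 unit, a rule chosen after the data were seen. By it 6.55% of all genes stood higher in severed ligament and 5.66% lower. With lines out of rank missing the shares were 5.32% and 7.17%. Among the 12849 named genes above the negative controls in a day 7 column these shares were 9.25% and 6.15%, and the counts of the 37 gene lists below are to be read against them. Of 563 list members 521 were tested, and the other 42 have no named probe.

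The split between higher and lower depended on how the columns were scaled. The median difference was 0.13 over the named genes above the negative controls, and -0.04 over all genes. Scaling each column to its median instead raised it to 0.85 over those named genes, and 10673 genes then stood higher and 29 lower, against 2471 and 2138. Quantile normalisation within each dye gave -0.44, with 1048 genes higher and 12095 lower. Subtracting the negative controls and scaling at the 90th percentile, an alternative chosen after the data were seen, gave -0.05, with 1202 higher and 1209 lower. A direction below is thus one relative to the other genes of the same columns.

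Several enzymes that cut matrix were higher in severed ligament. Of 20 matrix proteases tested, 8 stood apart as higher in severed ligament and 0 as lower, with a median difference of 0.66. Their differences were above 0 in 13 and below 0 in 7, against 7388 and 5461 of the 12849 named genes above the negative controls. Most of their summed level came from Mmp2 and Mmp14 in every column. The members added up to 101013 and 93932 intensity units in the severed columns, against 16970, 16155 and 15358 in the sham columns. In whole tissue such a difference cannot separate more cells of a kind from more RNA in each cell. Mmp2, gelatinase A of fibroblasts, had 15.65 and 15.44 in severed ligament, against 12.72, 12.83 and 12.67 in sham ligament, a difference of 2.81 ± 0.78 (SE, unadjusted p = 0.000685 and adjusted p = 1 by limma). Both severed Mmp2 spots were over 60000 raw units, near the scanner's upper limit, so that the 6.99-fold difference of this probe may be larger. Mmp14, the membrane-bound collagenase that activates the Mmp2 protein, had 15.21 and 14.65 in severed ligament, against 12.16, 11.98 and 11.89 in sham ligament (difference 2.92 ± 1.61, with 1 severed spot over 60000, so that it may be larger). In both genes the severed columns lay above every sham column, and the gap was wider than the spread within either group. A second Mmp2 probe gave a smaller difference of 1.33.

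Mmp13, the main interstitial collagenase of rats, had 12.33 and 13.91 in severed ligament, against 9.19, 7.83 and 9.05 in sham ligament (difference 4.43 ± 1.80). The spots of sham replicates 2 and 3 lie in lines out of rank, and without them the difference was 3.93. Mmp9, gelatinase B of neutrophils, macrophages and osteoclasts, had 8.71 and 9.21 in severed ligament, against 5.64, 7.29 and 5.64 in sham ligament (difference 2.77 ± 0.81), where 1 of the 3 sham columns was above the negative controls. Mmp12, the macrophage elastase, had 11.03 and 10.19 in severed ligament, against 8.25, 8.63 and 7.92 in sham ligament (difference 2.35 ± 0.87). Mmp11, stromelysin 3 of fibroblasts, had 8.95 and 9.79 in severed ligament, against 7.58, 8.04 and 6.54 in sham ligament, where 2 of the 3 sham columns were above the negative controls. None of these groups overlapped. Mmp3, stromelysin 1, stood higher by a smaller 1.16 ± 1.13. Mmp19, another secreted metalloproteinase, was not above the negative controls in any sham column and was at least 1.21-fold higher in severed ligament. Mmp3, Mmp19 and the other list members named without being among the 4 steepest of their list were chosen after their values were seen.

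Several inhibitors of proteases were higher as well. Of 11 tested, 4 stood higher and 1 lower, with a median difference of 0.43. Timp1, the secreted inhibitor of most metalloproteinases, had 15.94 and 14.85 in severed ligament, against 13.41, 13.47 and 13.46 in sham ligament (difference 1.95 ± 0.61, with 1 severed spot over 60000). Serpine2, which blocks thrombin and plasminogen activators, had 10.83 and 10.86 in severed ligament, against 9.24, 9.34 and 8.72 in sham ligament (difference 1.74 ± 0.68). A2m, a general protease trap above the negative controls in 1 sham column, differed by 2.20 ± 1.08. Tfpi2, an inhibitor of serine proteases that was not above the negative controls in any sham column, was at least 1.64-fold higher. The Tfpi2 spot of sham replicate 3 lies in a line out of rank. Reck, a membrane-anchored inhibitor of metalloproteinases, was the member that stood lower, at 8.88 and 10.10 in severed ligament, against 10.53, 10.66 and 10.56 in sham ligament.

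**Figure D2:**
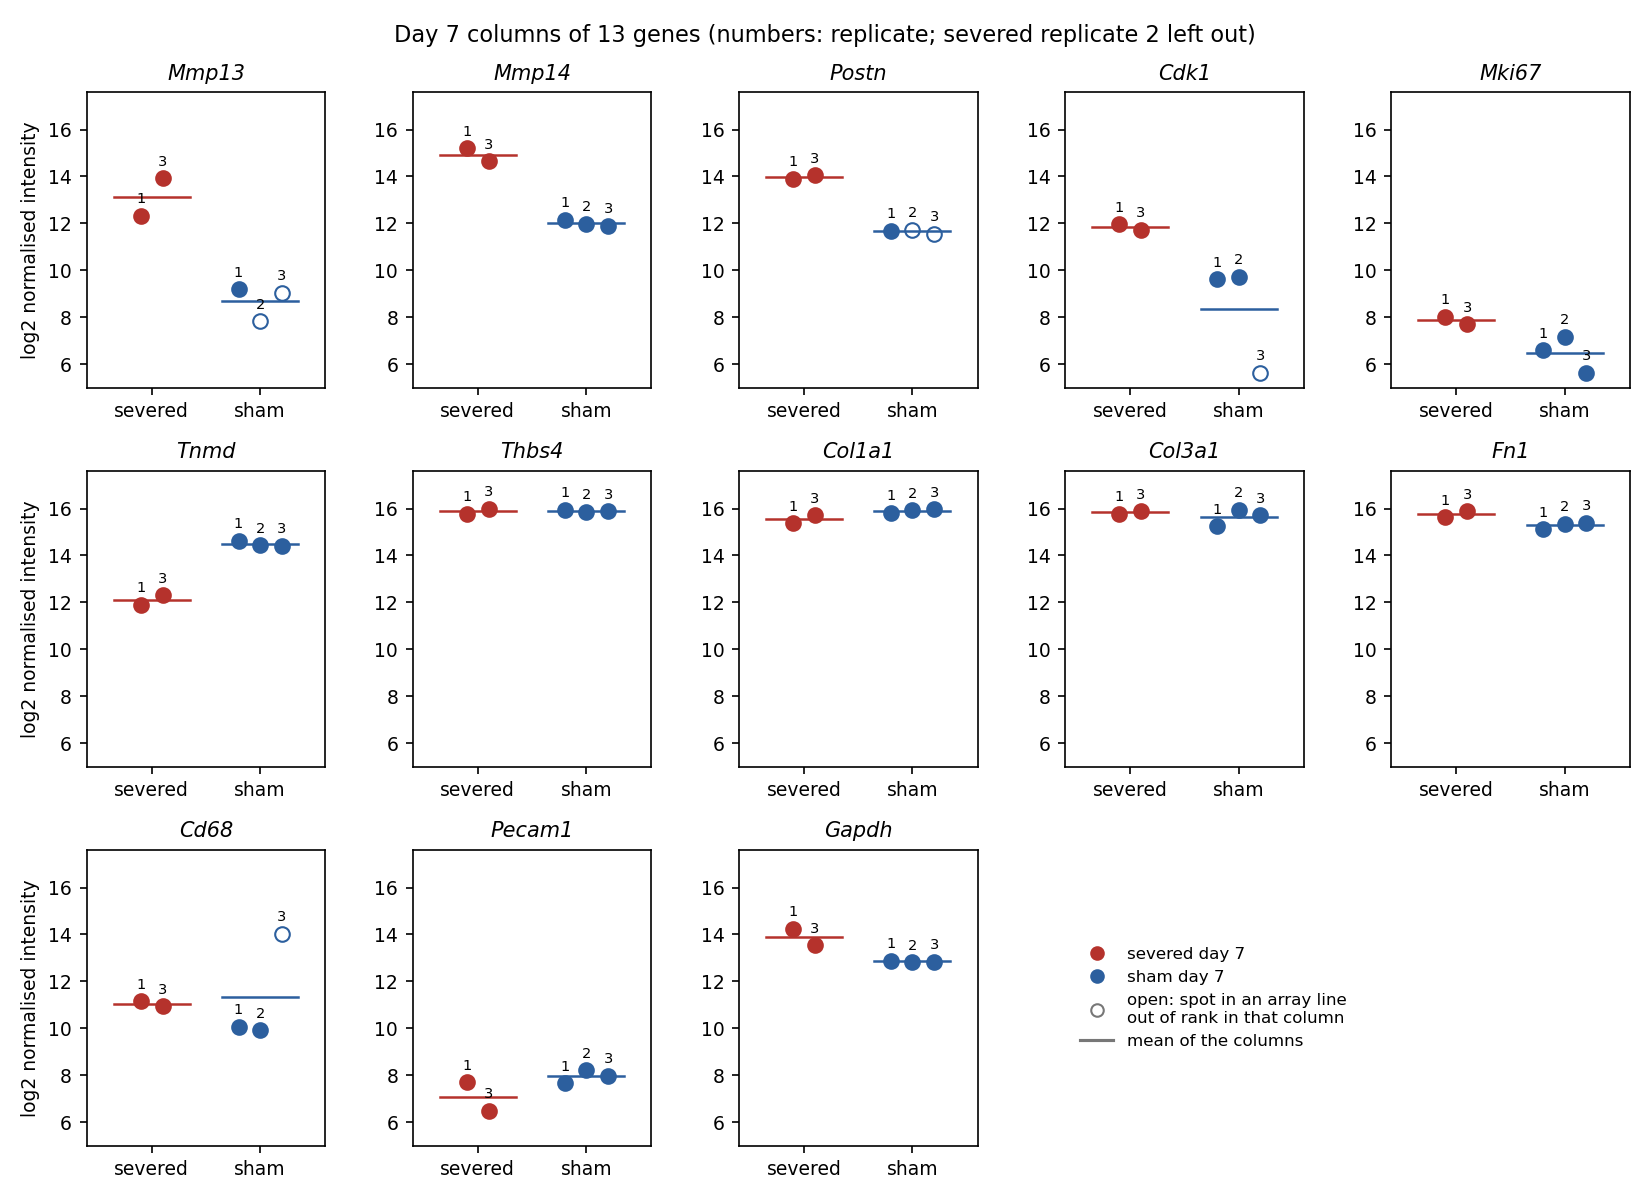
Log2 normalised intensity (y axis) of 13 genes in the 2 severed columns (left in each panel) and the 3 sham columns (right) of day 7, each point a column with its replicate number and each line the mean. Mmp14 and Tnmd separate without overlap in opposite directions, Thbs4, Col1a1 and Col3a1 sit near the top of the scale in both groups, and open points mark spots in array lines out of rank.

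The fibrillar collagens split. Of 9 tested, 3 stood higher, all of them chains of type V collagen, which caps the width of type I fibrils, and 1 stood lower, with a median difference of 0.20. Col5a3 had 12.87 and 12.23 in severed ligament, against 9.71, 9.05 and 9.48 in sham ligament (difference 3.13 ± 1.01). Col5a1 had 13.51 and 12.87 in severed ligament, against 10.68, 10.63 and 10.58 in sham ligament (difference 2.56 ± 1.03), and its second probe gave 1.71. Col5a2 had 15.88 and 15.20 in severed ligament, against 13.79, 13.85 and 13.71 in sham ligament (difference 1.76 ± 0.70, with 1 severed spot over 60000). All 3 type V chains were higher in both severed columns than in any sham column. Col11a2, a chain of the cartilage fibril collagen XI, had 8.54 and 8.45 in severed ligament, against 10.30, 10.41 and 10.36 in sham ligament (difference -1.86 ± 0.91).

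The main fibril collagens were near the upper limit of the scanner. Col1a1, the chain of type I collagen, had 15.37 and 15.71 in severed ligament, against 15.81, 15.93 and 15.98 in sham ligament (difference -0.37 ± 0.83), and was over 60000 raw units in 2 of 2 severed and 2 of 3 sham columns. A second Col1a1 probe differed by 0.98 in the other direction, with 2 sham spots out of rank. Col3a1, the type III collagen of young scar, had 15.78 and 15.89 in severed ligament, against 15.24, 15.95 and 15.72 in sham ligament (difference 0.20 ± 0.47). The Col3a1 groups overlapped and the Col1a1 groups did not. With spots of both groups near the limit, neither the size nor the direction of these differences is settled.

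Of 12 other collagens, 4 stood higher and 0 lower, with a median difference of 0.70. They were Col16a1 (difference 2.15 ± 0.81), a fibril-associated collagen above the negative controls in 1 sham column, Col8a1 (1.79 ± 0.96), a short-chain collagen of vessel walls, and Col4a1 (1.48 ± 1.45) and Col18a1 (1.41 ± 0.86) of basement membranes. The enzymes and carriers that process collagen had 5 of 20 higher and 1 lower, with a median of 0.79, but 6 of the 20 have a spot in a line out of rank. With those lines missing 3 of 16 measured members stood higher. Lox, the lysyl oxidase that starts collagen cross-links, had 13.42 and 13.11 in severed ligament, against 13.35, 13.40 and 5.64 in sham ligament. Its difference of 2.47 was -0.08 with the sham replicates in lines out of rank missing, which leaves sham replicate 1 alone. A second, dimmer Lox probe with no spot in such a line gave 0.84. Adamts2, which trims the end of procollagen, differed by 3.43 with all spots and by 0.92 with such spots missing. P4ha1, a prolyl hydroxylase, stood lower at 10.01 and 9.99 in severed ligament, against 11.21, 11.08 and 11.05 in sham ligament.

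Among the glycoproteins of healing matrix, 7 of 16 tested stood higher and 2 lower, with a median difference of 0.86. Postn, periostin, a fibroblast protein that binds collagen in scars, had 13.90 and 14.05 in severed ligament, against 11.69, 11.73 and 11.56 in sham ligament (difference 2.31 ± 1.84, and 2.28 with lines out of rank missing). Tnn, tenascin N, had 10.61 and 9.87 in severed ligament, against 7.22, 7.95 and 6.71 in sham ligament (difference 2.94 ± 1.13), where 1 sham column was above the negative controls. Has2, which makes hyaluronan, had 10.16 and 10.48 in severed ligament, against 8.20, 7.74 and 8.50 in sham ligament (difference 2.17 ± 0.79). None of the 3 overlapped between the groups. Cthrc1, secreted by fibroblasts in wounds, differed by 1.70 ± 1.78, and Ccn4 and Fbln2 by 1.10 ± 0.68 and 1.12 ± 1.40. Spp1, osteopontin, had 14.47 and 13.86 in severed ligament, against 11.01, 10.85 and 5.64 in sham ligament, the last in a line out of rank, and differed by 3.24 without that line. Fn1, fibronectin, was high in both groups at 15.62 and 15.89 in severed ligament, against 15.13, 15.35 and 15.39 in sham ligament, and both severed spots were over 60000. Lower were Ccn2, connective tissue growth factor, at 12.47 and 14.19 in severed ligament, against 15.09, 14.96 and 14.87 in sham ligament, and Ccn1, its close relative (difference -1.45 ± 1.95).

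Markers of mature ligament and tendon were more often lower. Of 12 tested, 4 stood lower and 1 higher, with a median difference of -0.40, and their summed level was 134522 and 189252 in severed ligament, against 215431, 197944 and 199953 in sham ligament. Tnmd, tenomodulin, a membrane protein of ligament and tendon cells, had 11.89 and 12.31 in severed ligament, against 14.62, 14.44 and 14.41 in sham ligament (difference -2.39 ± 1.19). Kera, keratocan, a small proteoglycan, had 7.83 and 9.28 in severed ligament, against 12.56, 12.58 and 11.93 in sham ligament (difference -3.80 ± 1.55, and -4.00 with lines out of rank missing). Comp, the cartilage oligomeric matrix protein that also binds tendon collagen, had 12.92 and 14.42 in severed ligament, against 15.20, 15.10 and 15.00 in sham ligament, and Chad, chondroadherin, differed by -1.58 ± 1.38. The 2 severed columns differed from each other by over 1 in Kera, Comp and Chad. Under median scaling Tnmd stood at 0.09 and Comp at 1.10, against 0.85 for the median named gene above the negative controls, while Kera stayed at -1.69. Aspn, asporin, was higher at 14.26 and 14.72 in severed ligament, against 13.30, 13.24 and 13.31 in sham ligament, and Thbs4, thrombospondin 4, was near saturation in all 5 columns.

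The small proteoglycans split evenly, with 3 of 11 higher and 3 lower. Lum, lumican, which binds fibrils and is abundant in scars, had 13.92 and 14.33 in severed ligament, against 12.91, 12.01 and 12.05 in sham ligament (difference 1.80 ± 0.66). Podnl1, a podocan relative, differed by 3.76 ± 1.40, and by 2.67 with lines out of rank missing. Omd, osteomodulin, had 8.29 and 9.41 in severed ligament, against 11.01, 10.96 and 10.93 in sham ligament. Dcn, decorin, had 14.52 and 5.64 in severed ligament, against 5.64, 15.65 and 15.95 in sham ligament, and its floor values are those of severed replicate 3 and sham replicate 1, which share an array. The Dcn spots of sham replicates 2 and 3 lie in lines out of rank, and no difference is read from Dcn.

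Genes of the cell cycle leaned one way. Of 27 tested, 10 stood higher and 0 lower, with a median difference of 0.80 and 25 differences above 0, and 9 of 24 stood higher with lines out of rank missing. Their summed level was 15801 and 14873 in severed ligament, against 7837, 7735 and 36516 in sham ligament, so the sums overlapped. A spot in a line out of rank is held by 10 of the 27. Ccna2, cyclin A of S phase, had 9.33 and 9.71 in severed ligament, against 7.58, 6.97 and 6.68 in sham ligament (difference 2.44 ± 1.13), where 1 sham column was above the negative controls. Ccnb1, cyclin B of mitosis, had 9.87 and 10.50 in severed ligament, against 8.73, 8.49 and 7.75 in sham ligament (difference 1.86 ± 1.00). Both cyclins were higher in each severed column than in any sham column. Cdk1, the mitotic kinase, had 11.96 and 11.73 in severed ligament, against 9.62, 9.74 and 5.64 in sham ligament, and differed by 2.17 without the sham replicate in a line out of rank, against 3.52 with it. A second, dimmer Cdk1 probe gave -1.38 with 2 sham spots out of rank, and a second Top2a probe gave -0.45 against 2.11 for the brighter probe of this topoisomerase. Mki67, the Ki-67 proliferation antigen, had 8.02 and 7.71 in severed ligament, against 6.59, 7.17 and 5.64 in sham ligament (difference 1.40 ± 0.95). Mki67 and Top2a were above the negative controls in 1 sham column.

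Glycolysis genes had 6 of 18 higher and 1 lower, with a median of 0.69. Eno1, enolase, had 13.78 and 13.37 in severed ligament, against 11.92, 11.74 and 11.54 in sham ligament (difference 1.84 ± 1.08), and Slc2a1, the basal glucose carrier, differed by 1.42 ± 0.93. Gapdh, often used as a constant control, had 14.23 and 13.55 in severed ligament, against 12.88, 12.83 and 12.84 in sham ligament (difference 1.04 ± 0.87). The groups of Gapdh did not overlap. Pfkl, the liver phosphofructokinase, had 9.44 and 9.63 in severed ligament, against 11.13, 11.19 and 11.30 in sham ligament. Of 19 oxidative phosphorylation genes and of 18 ribosomal protein genes, 0 stood apart either way, though 2 ribosomal genes stood lower with lines out of rank missing.

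**Figure D3:**
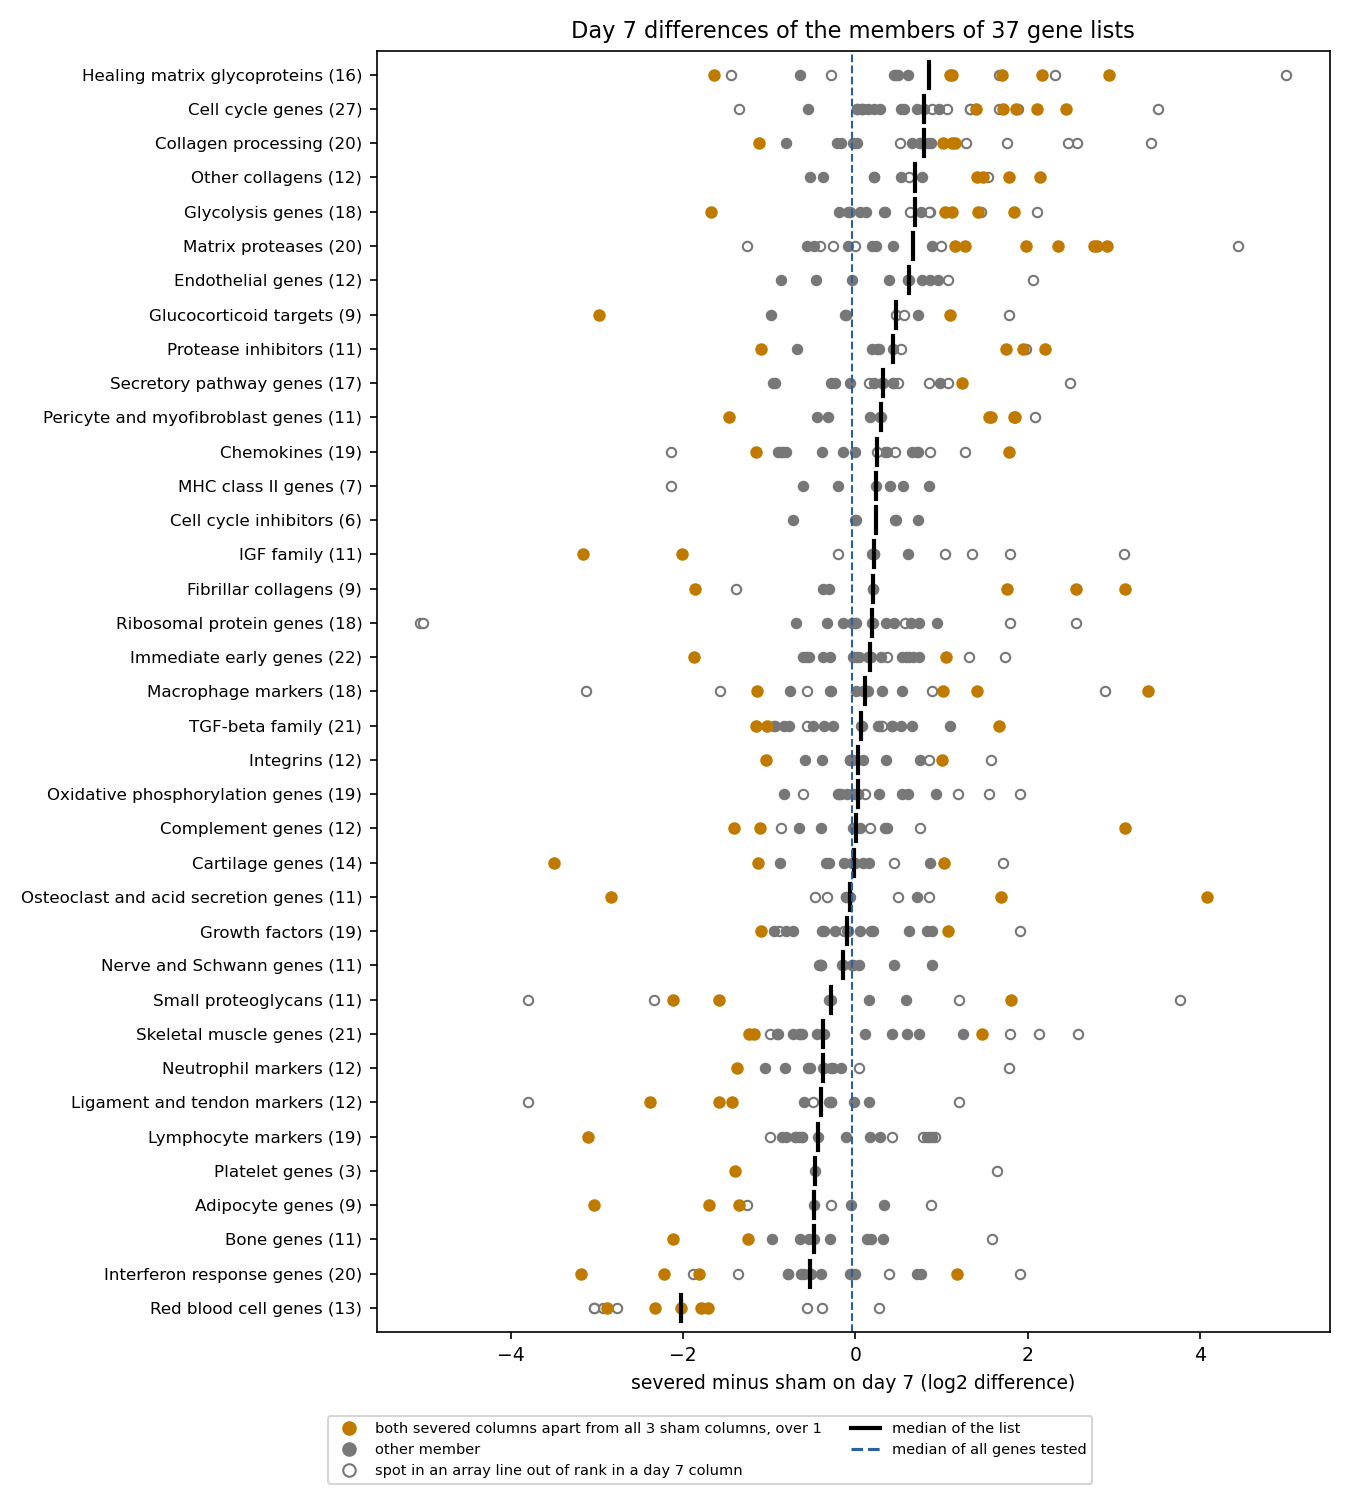
Severed minus sham difference on day 7 (x axis, log2) of every tested member of 37 gene lists (y axis, number tested in brackets), ordered by list median. Orange points stand apart by column, open points have a spot in an array line out of rank, black bars are list medians from 0.86 for healing matrix glycoproteins to -2.02 for red blood cell genes, and the dashed line is the median of all genes (-0.04).

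Genes of red blood cells and their precursors were mostly lower. Of 13 tested, 9 stood lower and 0 higher, with a median difference of -2.02, and 8 of 10 stood lower with lines out of rank missing. Their summed level was 66193 and 110188 in severed ligament, against 224835, 206906 and 147342 in sham ligament. Epb42, a protein of the red cell membrane skeleton, had 7.53 and 7.09 in severed ligament, against 10.22, 10.22 and 10.14 in sham ligament (difference -2.88 ± 0.81). Ahsp, the chaperone of alpha globin, had 11.64 and 10.66 in severed ligament, against 14.23, 14.22 and 14.11 in sham ligament, and Hbb, a beta globin, had 13.80 and 11.41 in severed ligament, against 14.70, 14.66 and 14.52 in sham ligament. Every severed value of the 3 genes was below every sham value, though the Ahsp spot of sham replicate 3 lies in a line out of rank. Under median scaling the list's median was -0.45 and Hbb turned to 0.53. The amount of blood in the ligaments was measured in no other way, and its part in the other differences was not tested.

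Markers of other cells that the whole ligament could hold moved in different directions. Of 18 macrophage markers, 4 stood higher and 1 lower, with a summed level of 82390 and 68137 in severed ligament, against 54015, 86194 and 45056 in sham ligament, so the sums overlapped. Cd68, a lysosomal protein of macrophages, had 11.15 and 10.93 in severed ligament, against 10.06, 9.92 and 14.03 in sham ligament, where the last value is in a line out of rank. Without that value it was higher by 1.05. Lgals3, galectin 3, had 15.28 and 14.30 in severed ligament, against 13.38, 13.31 and 13.42 in sham ligament (difference 1.42 ± 0.71, with 1 severed spot over 60000). Tyrobp, the adaptor of myeloid receptors, had 13.94 and 14.22 in severed ligament, against 13.30, 13.13 and 5.64 in sham ligament, and its second probe gave -0.80 against 3.39. The size of 3.39 rests on the floor value of sham replicate 3, which is in no line out of rank, and is not read as that of Tyrobp. Marco, a scavenger receptor, was above the negative controls in neither severed column.

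Lymphocyte markers had 0 of 19 higher and 1 lower, with a summed level of 11507 and 11673 in severed ligament, against 25665, 26062 and 24386 in sham ligament. Without Cd52 the other 18 members summed to 9757 and 9860 in severed ligament, against 9795, 10236 and 10298 in sham ligament, so the gap of the sums was that of Cd52. Cd52, a small surface glycoprotein of lymphocytes and other leukocytes, had 10.77 and 10.82 in severed ligament, against 13.95, 13.95 and 13.78 in sham ligament (difference -3.10 ± 0.84). Cd3d, a chain of the T cell receptor complex, had 10.03 and 10.13 in severed ligament, against 10.88, 11.17 and 11.15 in sham ligament. The last of these values is in a line out of rank. Neutrophil markers summed to 1339 and 1740 in severed ligament, against 2172, 1676 and 2455 in sham ligament, and 1 of 12 stood higher and 1 lower. Of interferon response genes, 4 of 20 stood lower and 1 higher. Rsad2, viperin, had 9.94 and 10.07 in severed ligament, against 13.27, 12.98 and 13.29 in sham ligament (difference -3.18 ± 1.06), and Irf7 differed by -2.22 ± 1.27. The part of these cells in the day 7 differences was not tested.

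Of 11 osteoclast and acid secretion genes tested, 2 stood higher and 1 lower. Atp6v0d2, a subunit of the proton pump of osteoclasts and macrophages, had 9.68 and 10.50 in severed ligament, against 5.70, 6.59 and 5.72 in sham ligament. No sham column was above the negative controls for Atp6v0d2, so it was at least 7.73-fold higher in severed ligament. Acp5, tartrate-resistant acid phosphatase, had 12.85 and 13.14 in severed ligament, against 11.33, 11.32 and 11.26 in sham ligament (difference 1.69 ± 0.71). Car2, carbonic anhydrase 2, found in osteoclasts and also abundant in red blood cells, had 12.30 and 12.11 in severed ligament, against 15.16, 15.04 and 14.94 in sham ligament (difference -2.84 ± 0.78). The Car2 groups did not overlap, and their order was the reverse of that of Acp5 and Atp6v0d2.

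Of 11 pericyte and myofibroblast genes, 5 stood higher and 1 lower. Rgs5, a regulator of G protein signalling in pericytes, had 10.93 and 11.36 in severed ligament, against 9.31, 9.48 and 9.08 in sham ligament (difference 1.85 ± 0.66), and Tagln, a smooth muscle actin binder, differed by 1.84 ± 1.51. Cspg4, the NG2 proteoglycan of pericytes, went the other way at 11.13 and 10.81 in severed ligament, against 12.41, 12.46 and 12.43 in sham ligament (difference -1.46 ± 0.48). Endothelial genes had 1 of 12 higher and 0 lower, with a median difference of 0.62, 9 differences above 0 and 3 below. Emcn (2.07), Cldn5 (1.07), Vwf (0.96) and Esam (0.87) were above 0, but Emcn and Cldn5 have spots in lines out of rank. Pecam1, an endothelial adhesion protein, was 1 of the 3 below 0. It had 7.70 and 6.48 in severed ligament, against 7.65, 8.22 and 7.98 in sham ligament, so the groups overlapped.

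Adipocyte genes had 4 of 9 lower, and Adipoq, adiponectin, had 6.36 and 9.27 in severed ligament, against 10.82, 10.88 and 10.83 in sham ligament. Their summed level was 6467 and 9683 in severed ligament, against 19726, 20154 and 20145 in sham ligament. Skeletal muscle genes were bright in all 5 columns, summing to 265770 and 229812 in severed ligament, against 367652, 372959 and 281896 in sham ligament, and 1 of 21 stood higher and 2 lower. Ucma, a cartilage matrix protein, had 9.45 and 10.87 in severed ligament, against 13.72, 13.65 and 13.59 in sham ligament (difference -3.50 ± 1.64). The part of fat, muscle and cartilage beside the ligament was not tested.

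Among secreted regulators, Igfbp5, which binds insulin-like growth factors in matrix, had 8.75 and 9.19 in severed ligament, against 12.26, 11.99 and 12.14 in sham ligament (difference -3.16 ± 1.30), and its second, dim probe gave -0.36. Igfbp6 was lower as well (-2.02 ± 1.74). Cfi, complement factor I, which cuts activated complement, had 10.42 and 11.41 in severed ligament, against 7.81, 7.87 and 7.70 in sham ligament (difference 3.12 ± 1.00). Tsc22d3, a target of glucocorticoids, had 10.92 and 11.96 in severed ligament, against 14.40, 14.35 and 14.51 in sham ligament (difference -2.98 ± 1.05), while Mt1, a metallothionein that glucocorticoids also raise, stood higher by 1.10 ± 1.34. Klf4, a transcription factor of the immediate early class, differed by -1.87 ± 0.81. Of the TGF-beta family, 1 of 21 stood higher and 2 lower, of growth factors 2 of 19 higher and 1 lower, of integrins 2 of 12 higher and 1 lower, and of chemokines 2 of 19 higher and 1 lower. Cell cycle inhibitors, MHC class II genes and nerve genes had 0 standing apart of 6, 7 and 11 tested.

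The severed columns were also set against unmanipulated ligament, which carries the same dye and had no surgery. With limma and Benjamini-Hochberg adjustment over 37746 genes, 43 passed an adjusted p of 0.05 (0.114%), of which 26 rose (0.0689%) and 17 fell (0.045%), and 1586 (4.2%) had an unadjusted p under 0.05. Leaving out severed replicate 1 left 5 calls and leaving out severed replicate 3 left 9. Setting the array lines out of rank to missing gave 101. Of the 43, 27 carry a gene name, 17 that rose and 10 that fell. All 27 also passed with the lines out of rank missing, but none of their day 7 spots lies in such a line. That run left their day 7 values in place, so it is no check of them.

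Genes of the matrix and its proteases were among those that rose. Of 521 tested list members, 11 passed: 9 rose and 2 fell. Lum rose by 3.30 ± 0.45 (limma adjusted p = 2.47e-05), with 13.92 and 14.33 in severed ligament, against 10.76 at the lowest, 10.76 at the median and 11.04 at the highest in unmanipulated ligament. Col5a3 rose by 3.83 ± 0.69 (adjusted p = 0.00401) and Col5a2 by 2.29 ± 0.48 (adjusted p = 0.0192), and Col16a1, above the negative controls in 1 unmanipulated column, rose by 2.65 ± 0.56. Mmp12 rose by 3.50 ± 0.59 (adjusted p = 0.00146), and Mmp2 rose by 2.83 ± 0.53 (adjusted p = 0.00527). The Mmp2 rise may be larger, since both severed spots were over 60000. Mmp11 was above the negative controls in 0 of 5 unmanipulated columns and rose at least 5.62-fold (adjusted p = 0.00215). Rgs5 and Acp5 completed the list members that rose, and Car2 (-2.77 ± 0.54, adjusted p = 0.00652) and Cd52 (-2.69 ± 0.58, adjusted p = 0.0256) were the 2 that fell.

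Among named genes outside the lists, Megf6, a secreted protein with epidermal growth factor repeats, rose by 3.96 ± 0.78, with 10.87 and 11.92 in severed ligament, against 7.22 at the lowest and 7.60 at the highest in unmanipulated ligament. Emilin1, a glycoprotein of elastic fibres, was above the negative controls in 0 of 5 unmanipulated columns and rose at least 6.85-fold (adjusted p = 0.00857). Fbn2, fibrillin 2 of developing microfibrils, and Msln, mesothelin, rose by 3.45 ± 0.60 and 3.47 ± 0.76, and were above the negative controls in 1 and 2 of the 5 unmanipulated columns. Mt3, Chpf, Maged2 and Hs2st1 also rose, and of these Chpf and Hs2st1 encode enzymes that build glycosaminoglycan chains. The genes that fell most were Exosc2 (-4.04 ± 0.66), an RNA exosome subunit, Trim26 (-3.60 ± 0.46), a ubiquitin ligase, Rec114 (-3.14 ± 0.63), a meiotic recombination gene, Mlph (-3.11 ± 0.68), melanophilin, and Urah (-3.08 ± 0.71), an enzyme of urate breakdown. Exosc2 had 9.14 and 11.13 in severed ligament, against 13.77 at the lowest, 14.28 at the median and 14.58 at the highest in unmanipulated ligament. Mkrn1, Gabarapl2 and Plaat3 fell too. Under median scaling Exosc2 differed from sham by 0.01, against -2.47 here.

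**Figure D4:**
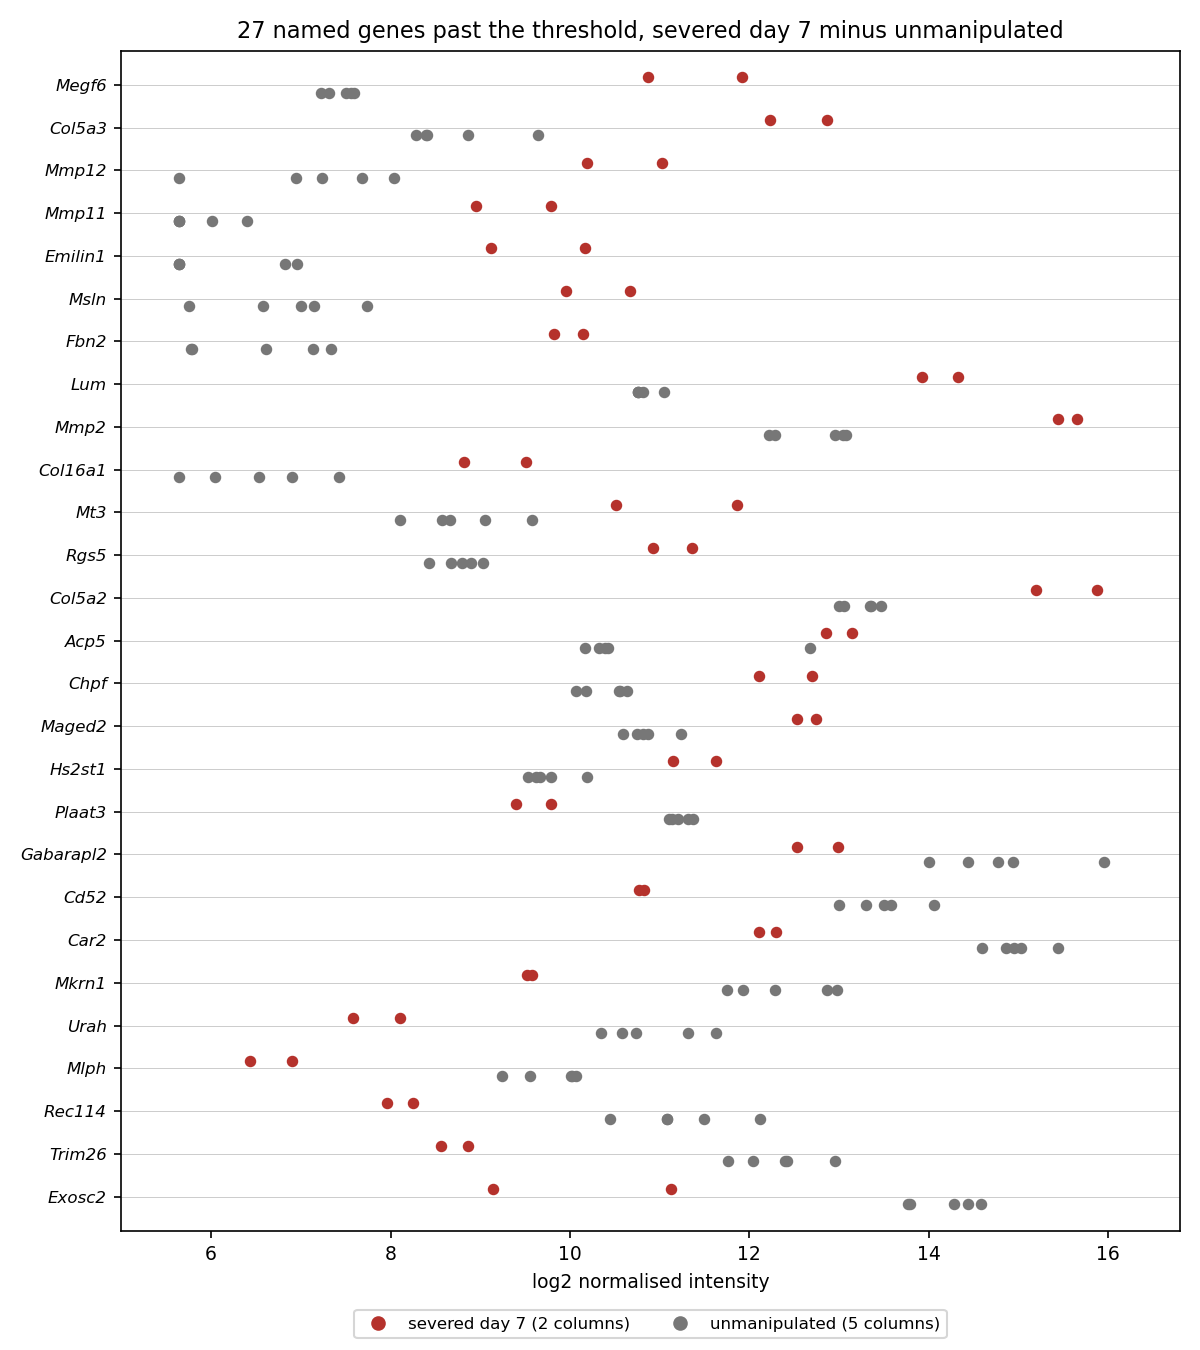
Log2 normalised intensity (x axis) of the 27 named genes past the threshold for severed day 7 against unmanipulated ligament (y axis), with the 2 severed columns in red above the 5 unmanipulated columns in grey. The groups lie apart in the 27 genes, as their choice by this comparison makes likely, and Acp5 comes closest, with 12.85 in the lower severed column and 12.68 in the highest unmanipulated column.

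Several genes far apart from sham were not apart from unmanipulated ligament. Tnmd had 11.80 at the lowest, 12.47 at the median and 12.84 at the highest in unmanipulated ligament, so the severed columns at 11.89 and 12.31 lay within that range (difference -0.31 ± 0.81). Timp1 had 15.61 to 15.99 in unmanipulated ligament, and its severed columns at 15.94 and 14.85 differed by -0.45 ± 0.42. Kera (7.51 to 8.63) and Igfbp5 (8.36 to 8.68) in unmanipulated ligament were likewise near the severed level and far below the sham level. For these 4 genes the sham columns were the ones that stood away from the rest. The sham columns were also the only ones here labelled with Cy3, so sham surgery and dye cannot be told apart in this. Mmp13 had 8.97 to 11.34 in unmanipulated ligament and differed by 2.82 ± 1.23 (adjusted p = 1), and Mmp14, at 11.20 to 12.24, differed by 3.04 ± 1.10 (adjusted p = 0.696, and 0.0324 with lines out of rank missing). Postn differed by 3.68 ± 1.26 (adjusted p = 0.578), and Cdk1 by 1.51 ± 0.99 (adjusted p = 1). Spp1, at 13.03 to 14.28 in unmanipulated ligament, and Gapdh, at 13.30 to 15.36, overlapped the severed columns.

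Days 10 and 14 have the same dyes as day 7 for severed and sham ligament, so that a dye effect of fixed size cancels between the days. The day 7 difference minus the mean of the day 10 and day 14 differences passed the threshold for 0 of 37746 genes (0%) with limma, and 652 (1.73%) had an unadjusted p under 0.05. Mkrn1, a ubiquitin ligase, had the smallest adjusted p among the genes named here, at 0.128, with a value of -4.17 ± 0.85. The values ran in opposite directions on day 10. Mmp13 had a severed minus sham difference of 4.43 on day 7, -4.74 on day 10 and 2.02 on day 14. Postn had 2.31, -3.53 and 2.46, Mmp14 had 2.92, -1.96 and 1.22, and Tnmd had -2.39, 1.05 and 0.06 on days 7, 10 and 14. Day 10 thus lay on the other side of 0 from day 7 in each of these 4 genes. These values keep the spots in lines out of rank. The Mmp13 and Postn spots lie in such lines in sham replicates 2 and 3 of day 7. Every day 10 column had early lines out of rank, from 12 to 36 of them. Differences of days 10 and 14 without such spots are not given here. For Mmp14 the value against the mean of those days was 2.96 without them and 3.29 with them.

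The same held for the genes that passed against unmanipulated ligament. In 27 of 27 the day 10 difference had the opposite sign to that of day 7, and in 4 of 27 the day 14 difference did. Over all 37746 genes the shares were 52.5% on day 10 and 39.4% on day 14. Col5a3 had 3.13 on day 7, with a mean of 8.43 in severed and 11.67 in sham ligament on day 10 (difference -3.23), and 1.10 on day 14. Cd52 had -3.10 on day 7, 1.69 on day 10 and -0.42 on day 14. These genes were chosen by the severed day 7 columns, so the signs on day 7 are a description, and the cause of the day 10 signs was not tested.

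**Figure D5:**
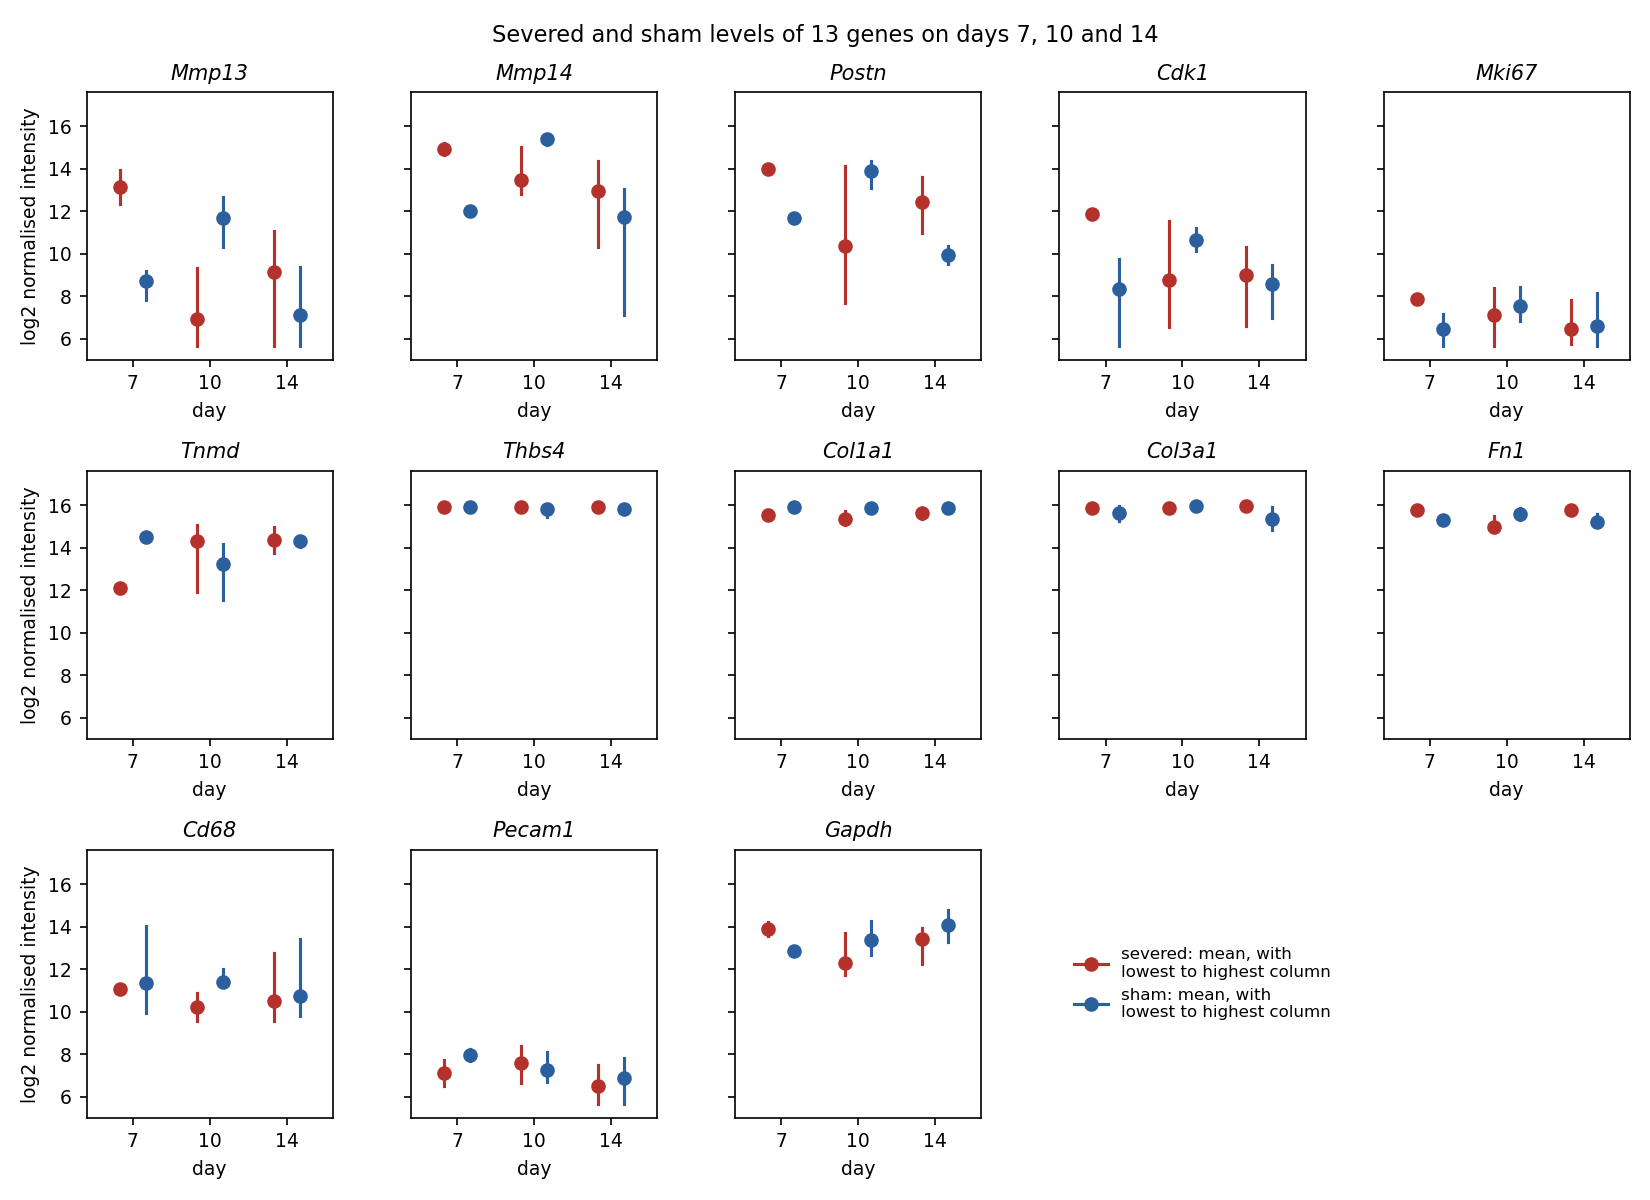
Log2 normalised intensity (y axis) of 13 genes in severed (red, left) and sham (blue, right) ligament on days 7, 10 and 14 (x axis), with points for means and lines from the lowest to the highest column. Spots in array lines out of rank are kept. Mmp13, Mmp14 and Postn have a higher mean in severed ligament on days 7 and 14, with overlapping columns on day 14 for Mmp13 and Mmp14, and a lower mean on day 10, while Thbs4 and Col3a1 stay near the top of the scale.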

How the data were processed

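Severed, sham and unmanipulated rat ligaments were read on 43 arrays, 29 of them with 2 samples in different dyes, giving 72 columns of 44289 spots. The deposited values are median spot intensity minus background of 1 scanner channel, per the file headers and the design text of the series. A second deposited table holds log2 values of the same spots, which the authors had scaled between columns by an unstated step with dim spots missing, as the values show, and it served as an alternative. Of 41012 probes 18539 have a gene name in the files or in RefSeq's GRCr8 tables, used for names only.

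Columns were quantile-normalised together, floored at 50 and taken to log2. Control spots were left out, repeated spots averaged, genes kept where over 100 in at least 3 samples, and a gene stood for by its brightest probe. Windows of 500 rows whose ranks did not match the other ligaments were set missing, which removed severed replicate 2 in 84 of 89 windows, and the whole of it was then left out. Limma 3.58.1 in R 4.3.3 fitted 1 mean per group over all samples, with Benjamini-Hochberg adjustment at 0.05. The fit was tested on simulated data. The 3 sham day 7 columns agreed within the noise of repeated spots and entered as their mean. Other groups whose columns agreed as closely by that measure, such as severed day 10 (SD 0.717 against 0.808), were kept as separate samples. Figures were drawn in Python 3.11.15. The number of arrays limits the precision.

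Genes eligible to be named were set by a rule. They were the 4 members of each list with the largest difference and 14 fixed genes (13 tested, as Acta2 has no named probe). The 5 largest changes in each direction against unmanipulated ligament were added. The list part of the rule picks 144 genes, and the text names only part of them. No integrin, chemokine, TGF-beta family, MHC class II, nerve or cell cycle inhibitor gene is named, for example. Other genes were named after their values were seen, as were Mt3, Chpf, Maged2, Hs2st1, Mkrn1, Gabarapl2 and Plaat3. The groups, gene lists and tests were chosen with earlier results of these data known. The array lines out of rank, the rule for standing apart and the scaling on negative controls were chosen after seeing the data. Alternatives were the scaling, floor, filter, dye term, probe rule, blocks, the second table and leaving out each column.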

Additional observations from a re-analysis of the deposited data

How the results depend on the processing

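Severed against sham ligament on day 7 gave 0 calls as reported and 1 under median scaling, 147 with a floor of 200, 19 with the sham columns as 3 samples, 35 from the deposited log2 table and 3 with negative controls subtracted. With array lines out of rank missing it gave 12 under median scaling and 4 with negative controls subtracted. Keeping severed replicate 2, the 0 calls became 124 with the sham columns as 3 samples and 27 with spots that the scanner software did not find missing. Severed against unmanipulated ligament gave 43 calls as reported, 184 under median scaling, 88 with quantile normalisation within each dye, 18 with a floor of 10, 192 with a floor of 200, 143 with spots not found missing and 132 with negative controls subtracted. With lines out of rank missing that count was 101, and it was 107 with a dye term, 283 under median scaling, 71 with a floor of 10 and 209 with negative controls subtracted as well. The day 7 difference against days 10 and 14 gave 0 calls as reported, 1 under median scaling, 153 with a floor of 200, 25 with the sham columns as 3 samples, 6 with spots not found missing and 3 with negative controls subtracted. With lines out of rank missing it gave 4 under median scaling and 8 with negative controls subtracted. The array as a random replicate block, with the sham columns as 3 samples, gave 158 calls with severed replicate 2 and 25 without it. The replicate number as a block on day 7 alone gave 0 calls, and nothing in the labels pairs the numbers. Leaving out 1 column at a time gave 0 to 7 calls for severed against sham with severed replicate 2, 0 to 3 without it, 5 to 9 against unmanipulated and 0 to 7 against the other days. The columns whose removal added calls were severed replicate 3 (7 with severed replicate 2 kept, 3 without it), sham replicates 1 and 2 (3 each), and for the other days severed replicate 3 (3) and sham replicates 1, 2 and 3 (7, 5 and 1). Where a count moved, the cause was not tested, except that the sham columns as 3 samples add residual samples by construction. No named gene reversed as a called value in any alternative run. Such a reversal needs a call, and against sham and against the other days 0 genes were called as reported. Without a call, the sign changed in 254 gene values of the alternative runs. In 4600 both sign and call stayed the same, and 34 became stronger and 106 weaker. Depth of signal is limited by the negative controls: 54.2% and 60.6% of gene spots in severed replicates 1 and 3, against 37.7%, 41.8% and 36.8% in the sham columns, were above their 95th percentile.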
